A study of Mus musculus with 7 samples.

Results

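The receptors with which myeloid cells bind antibody, and the complement genes C3, C3ar1 and C5ar1, were examined in eosinophils sorted from mouse lung. Members were taken by gene symbol from the annotated table: of 10 listed genes (Fcgr1, Fcgr2b, Fcgr3, Fcgr4, Fcer1a, Fcer1g, Fcer2a, C3, C3ar1 and C5ar1), 9 had a probe set, 1 each, out of 18219 genes in all. No probe set carried the symbol Fcer2a, which encodes the low-affinity IgE receptor CD23, and it was not analysed here. Eosinophils came from OVA challenged lungs (3 arrays; OVA is ovalbumin, the egg white allergen) or from saline challenged lungs (4 arrays). Both groups were BALB/c mice, an inbred strain, and each array held RNA of 1 sorted sample. The labels give no age, sex, sensitisation schedule, sort gate or number of animals per sample, so each p-value reflects variation among the arrays, part of which may be technical.

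Fc receptors bind the constant part of an antibody and pass the signal into the cell. The activating IgG receptors Fcgr1, Fcgr3 and Fcgr4 and the IgE receptor chain Fcer1a signal through a shared chain, Fcer1g, whose tail carries an activation motif (ITAM) that recruits the kinase Syk. Fcgr2b carries an inhibitory motif instead and recruits the lipid phosphatase Inpp5d. Complement C3 is cleaved when complement is activated, and its small fragment is sensed by C3ar1, while C5ar1 senses the matching fragment of C5; both receptors draw granulocytes to inflamed tissue.

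Levels are log2 RMA values, means are given with the SD over arrays, and differences are OVA minus saline with the standard error (SE) of limma's fit. A gene was called at a Benjamini-Hochberg adjusted p under 0.05 over all 18219 genes. Arrays correlated across genes at 0.990 to 0.994 among OVA samples, 0.974 to 0.990 among saline samples and 0.956 to 0.979 between the groups. Saline 1 and 2 had a narrower spread of levels across genes (SD 1.72 and 1.67) than saline 3 and 4 (1.83 and 1.86), and several results below change when either pair is left out. The 8 eosinophil markers had a mean level of 10.79 to 11.03 in OVA arrays and 10.14 to 10.38 in saline arrays, and none lay under the median of the 5222 negative control probe sets, 6.09 in OVA and 5.91 in saline on average. Of these 8, Epx, Prg2, Siglecf and Il1rl1 were called higher in OVA, by 2.69, 1.19, 0.83 and 0.585. The Epx mean in saline was 6.57, with 62.9% of negative controls below it. That level was close to background, so the size of the Epx difference is uncertain. Alox15 and Csf2rb had positive differences (0.33 and 0.14) and Ccr3 and Il5ra negative ones (-0.135 and -0.35), none of them called. Genes on the marker lists of other cells differed too. Of 14 alveolar macrophage markers, 6 were called higher and 1 lower in OVA (mean level 8.07 to 8.40 in OVA, 6.82 to 7.15 in saline). Of 9 neutrophil markers, 2 were called higher (7.82 to 8.35 in OVA, 7.64 to 8.02 in saline). The called neutrophil markers were Ngp and Ltf, granule proteins, higher by 1.34 and 0.86. Of 10 lung epithelium markers, the surfactant protein genes Sftpc and Sftpa1 were called higher, by 2.52 and 0.52, and the list had a mean level of 7.69 to 7.85 in OVA and 7.20 to 7.69 in saline. Of 10 dendritic cell markers, the integrin gene Itgae was called higher, by 2.24 (mean level 6.29 to 6.40 in OVA, 6.05 to 6.17 in saline). Without saline 1 and 2, Ltf, Sftpc, Sftpa1, Il1rl1 and the alveolar macrophage markers Mrc1 and Ear1 were not called. Il5ra and the T cell marker Cd3d were then called lower, and the epithelial marker Cdh1 higher. Without saline 3 and 4, the neutrophil marker S100a9, the monocyte marker Cd14 and the B cell marker Cd79a were also called higher. So were the dendritic cell marker Batf3, the epithelial markers Krt18 and Scgb1a1 and the endothelial marker Pecam1. The macrophage marker Fabp1, the monocyte marker Cx3cr1 and the mast cell marker Kit were then called lower. With all 7 arrays, none of 10 T and NK cell markers or 10 endothelium and fibroblast markers was called by limma. At an unadjusted p under 0.05, 1 T and NK cell marker was lower, and 1 endothelium and fibroblast marker was higher and 1 lower. With all 7 arrays, none of 11 monocyte and interstitial macrophage markers, 10 B cell markers or 11 mast cell and basophil markers was called by limma. At an unadjusted p under 0.05, 1 monocyte marker was higher, 1 B cell marker lower and no mast cell or basophil marker differed. In such sorted samples, fewer cells of a type and less RNA per cell cannot be told apart. Nor can the arrays tell whether a transcript on these lists came from other cells or from the eosinophils themselves.

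After OVA challenge the inhibitory IgG receptor gene Fcgr2b, the activating receptor genes Fcgr3 and Fcgr1 and the complement gene C3 were higher, by 1.74, 1.45, 1.56 and 2.47-fold. The shared chain Fcer1g, the IgE receptor chain Fcer1a, Fcgr4, C3ar1 and C5ar1 did not pass the test. Thus 4 of 9 members were called higher by limma, where 5.28% of all genes were, and 0 were called lower, where 1.17% of all genes were; 4 were higher and 0 lower at an unadjusted p under 0.05. In the same 4 members every OVA array lay above every saline array, which held for 11.0% of all genes; none had every OVA array below every saline array, as 8.63% of all genes did, and in the other 5 the groups overlapped. The median difference of the 9 members was 0.53, against -0.07 for all genes. With saline 1 and 2 left out 3 members were called higher, and with saline 3 and 4 left out 5 were. Without OVA 2 the count was 2, and without OVA 3 it was also 2. These member counts moved in the same direction as the calls over all genes. Genes called higher numbered 962 with all arrays, 819 without saline 1 and 2 and 2193 without saline 3 and 4. They numbered 431 without OVA 2 and 367 without OVA 3.

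**Figure D1:**
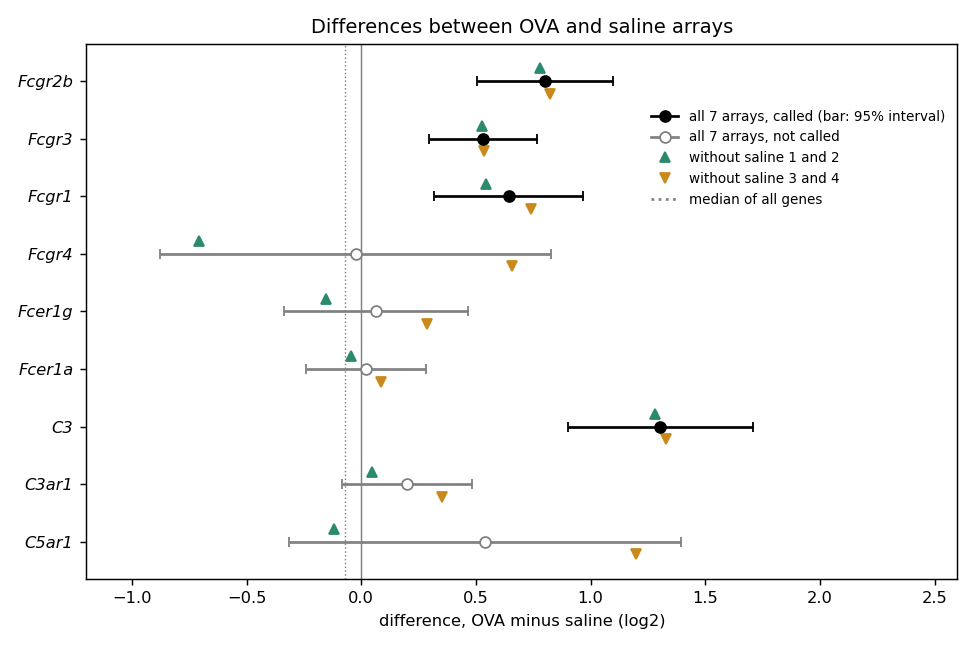
Difference in level between OVA and saline arrays (log2, x axis) for the 9 members, with bars for the 95% interval of limma's fit over all 7 arrays; filled circles are called genes, triangles the difference with a pair of saline arrays left out. The 4 called genes stayed near their value in both cases, while Fcgr4 ran from -0.71 without saline 1 and 2 to 0.66 without saline 3 and 4, and C5ar1 from -0.12 to 1.20.

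The sequence before the start site of each called member is shown because these 4 genes rose in the same arrays. The 250 bases upstream of the RefSeq start site (GRCm38.p6, all on the minus strand, printed 5′ to 3′ in the direction of transcription) lie at chr1:170976072-170976321 for Fcgr2b, chr1:171059404-171059653 for Fcgr3, chr3:96293970-96294219 for Fcgr1 and chr17:57228137-57228386 for C3. Capitals mark matches, on either strand, to short motifs of factors known in eosinophils and other myeloid cells: GAGGAA for PU.1, TTGCNNAA for C/EBP, AGATAA for GATA factors, and for STAT6 the triplets TTC and GAA set 4 bases apart.
Fcgr2b: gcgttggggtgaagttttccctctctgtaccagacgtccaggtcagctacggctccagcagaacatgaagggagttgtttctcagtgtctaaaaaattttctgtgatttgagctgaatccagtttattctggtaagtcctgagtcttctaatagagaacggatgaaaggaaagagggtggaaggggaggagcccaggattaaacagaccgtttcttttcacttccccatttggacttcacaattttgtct
Fcgr3: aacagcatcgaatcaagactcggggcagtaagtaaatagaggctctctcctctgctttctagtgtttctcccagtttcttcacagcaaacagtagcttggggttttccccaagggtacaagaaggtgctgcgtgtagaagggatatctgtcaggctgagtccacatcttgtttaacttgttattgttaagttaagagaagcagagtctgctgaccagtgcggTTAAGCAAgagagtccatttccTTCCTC
Fcgr1: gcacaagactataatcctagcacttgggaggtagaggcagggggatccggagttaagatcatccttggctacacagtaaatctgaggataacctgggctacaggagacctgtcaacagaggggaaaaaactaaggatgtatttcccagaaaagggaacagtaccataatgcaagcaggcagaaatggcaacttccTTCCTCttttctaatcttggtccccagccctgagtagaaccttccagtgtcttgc
C3: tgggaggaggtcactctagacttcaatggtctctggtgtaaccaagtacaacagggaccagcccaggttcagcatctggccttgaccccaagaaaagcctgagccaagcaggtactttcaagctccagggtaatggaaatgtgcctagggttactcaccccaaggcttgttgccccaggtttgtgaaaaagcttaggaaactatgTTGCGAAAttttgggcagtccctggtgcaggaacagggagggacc

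Counting from -1 at the base before the start site, C3 held the C/EBP form TTGCGAAA from -45, and Fcgr3 held TTAAGCAA, the same motif on the other strand, from -28. The PU.1 motif stood on the other strand from -55 in Fcgr1 and from -6 in Fcgr3, and none of the 4 motifs occurred in the Fcgr2b window. No matches overlapped. Over all 10 listed genes, at the first start site listed for each, GAGGAA was found in 4 windows, TTGCNNAA in 3, AGATAA in 2 and the STAT6 motif in 0. Among 32851 promoter windows of the same length the shares were 23.3%, 9.56%, 9.99% and 5.85%. A match describes letters in these windows and is not evidence of a bound factor.

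Among the IgG receptors, Fcgr2b had levels of 9.65, 10.04 and 9.64 in OVA arrays, against 9.11, 8.80, 8.99 and 9.0 in saline arrays. All 3 OVA arrays lay above the highest saline array, with OVA 2 the highest. Its mean was 9.78 ± 0.23 in OVA (n = 3) and 8.97 ± 0.13 in saline (n = 4), a difference of 0.80 (SE 0.13, limma adjusted p = 0.00744). Fcgr2b kept its call under every alternative run, with differences from 0.67 to 0.95.

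Fcgr3, the low-affinity activating receptor for IgG, had levels of 9.91, 10.14 and 10.18 in OVA arrays, against 9.59, 9.49, 9.58 and 9.52 in saline arrays. The saline arrays lay close together and all OVA arrays lay above them. The mean was 10.08 ± 0.15 in OVA and 9.54 ± 0.05 in saline, a difference of 0.53 (SE 0.10, limma adjusted p = 0.017). Fcgr3 was not called without OVA 2 (0.50, adjusted p = 0.0997) or without OVA 3 (0.48, adjusted p = 0.0928).

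Fcgr1, the high-affinity activating receptor for IgG, was dim, at 6.87, 7.25 and 6.91 in OVA arrays, against 6.18, 6.36, 6.65 and 6.28 in saline arrays. Its groups did not overlap, but saline 3 came close to the lower OVA arrays. The difference was 0.64 (SE 0.14, limma adjusted p = 0.0306) between means of 7.01 ± 0.21 in OVA and 6.37 ± 0.20 in saline. Only 68.3% of negative control probe sets lay below its mean in OVA and 59.3% in saline, so its level was close to background and the size of its difference is uncertain. Fcgr1 was not called without OVA 1 (adjusted p = 0.0627), OVA 2 (0.146), OVA 3 (0.093), saline 1 (0.0768), saline 2 (0.0522) or saline 1 and 2 together (0.102).

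**Figure D2:**
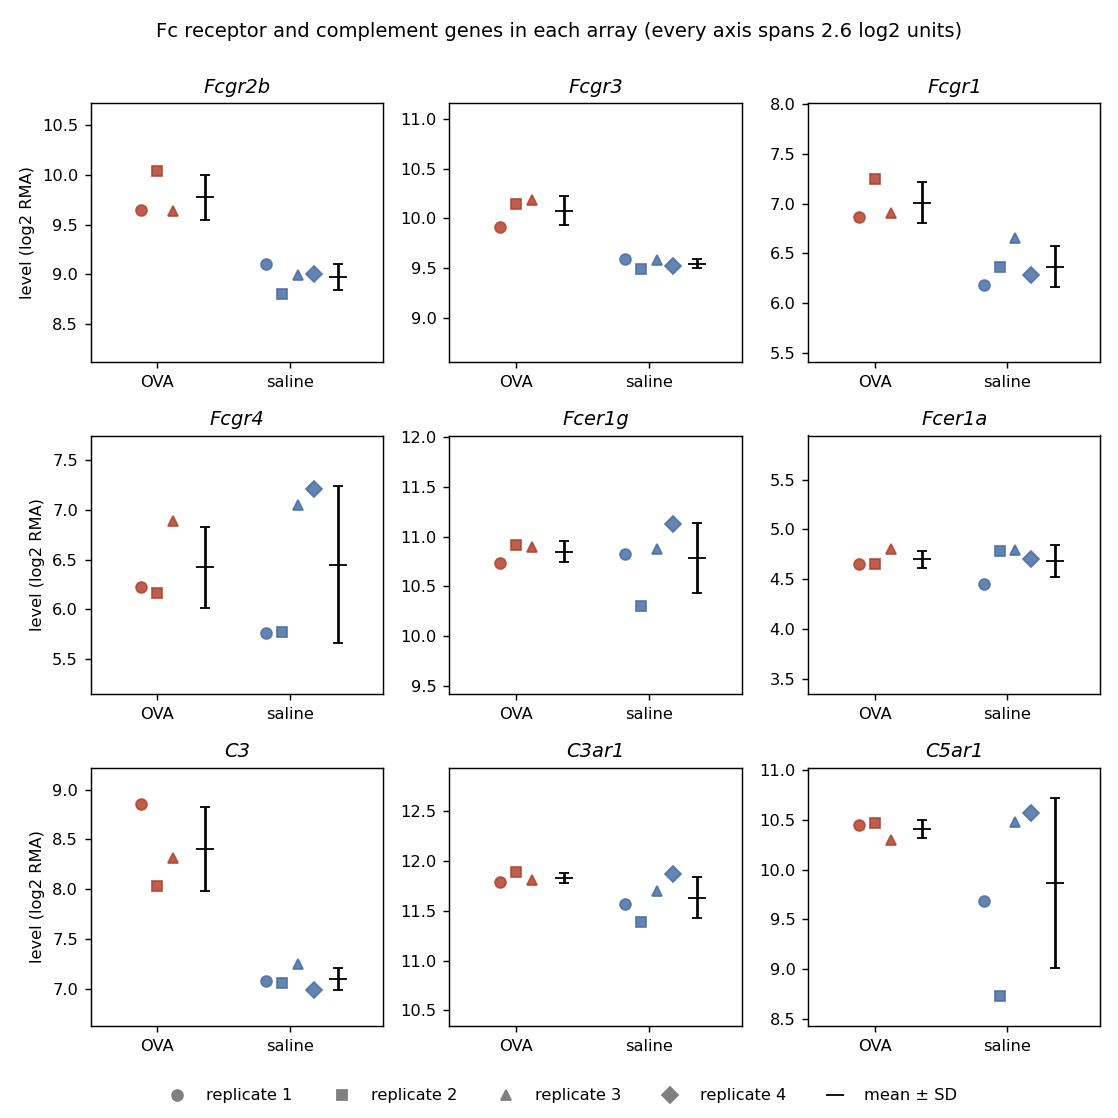
Level of each member (log2 RMA, y axis) in every array of the OVA and saline groups, with replicates marked by symbol and the mean ± SD beside them. Fcgr2b, Fcgr3, Fcgr1 and C3 show OVA arrays wholly above saline arrays, and Fcgr4 and C5ar1 show saline 1 and 2 below saline 3 and 4.

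Fcgr4, an activating IgG receptor of mouse neutrophils and monocytes, had levels of 6.22, 6.16 and 6.89 in OVA arrays, against 5.76, 5.77, 7.05 and 7.21 in saline arrays. The arrays fell apart within both groups, with OVA 3, saline 3 and saline 4 high and the other 4 low. The difference was -0.02 (SE 0.38, 95% interval -0.88 to 0.83, limma adjusted p = 0.972), so a change of up to about that size in either direction could not be told from none. It was -0.71 (SE 0.22, adjusted p = 0.109) without saline 1 and 2, and 0.66 (SE 0.21, adjusted p = 0.0603) without saline 3 and 4. Of the negative control probe sets, 57.0% lay below the mean of Fcgr4 in OVA and 60.8% in saline.

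The same 3 arrays stood above the other 4 for S100a8 and S100a9, abundant calcium-binding proteins of neutrophils and monocytes, which were picked after their values were seen. S100a8 was at 7.46, 7.88 and 9.70 in OVA arrays, against 7.38, 7.09, 9.97 and 9.71 in saline arrays. S100a9 was at 10.80, 10.96 and 11.66 in OVA arrays, against 9.63, 9.71, 11.42 and 11.35 in saline arrays. Of the 9 neutrophil markers 2 had that order, as had 2 of 11 monocyte markers, Cd14 and Treml4, and 4.53% of all genes. The other 7 neutrophil markers did not have it. Ngp was at 7.99, 8.16 and 8.23 in OVA arrays, against 7.19, 6.88, 6.71 and 6.38 in saline arrays, so that saline 3 and 4 were its lowest arrays. Camp, another granule protein, was likewise lower in saline 3 and 4 (6.33 and 6.13) than in saline 1 and 2 (6.82 and 6.57). The mean level of the neutrophil list was 7.82, 7.99 and 8.35 in OVA arrays, against 7.74, 7.64, 8.02 and 8.01 in saline arrays. The part of other cells in the Fcgr4 values was not tested.

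Whether activating and inhibitory receptors changed unequally was asked of the log2 ratio of each activating gene to Fcgr2b within an array. The ratio of Fcgr3 to Fcgr2b was 0.26, 0.10 and 0.54 in OVA arrays, against 0.48, 0.69, 0.59 and 0.52 in saline arrays. Only OVA 3 lay within the saline range. The mean was 0.30 ± 0.22 in OVA and 0.57 ± 0.09 in saline, a difference of -0.27 (two-sided exact permutation p = 0.0857 over 35 splits of the arrays, 0.257 after Benjamini-Hochberg adjustment over 3 pairs). The ratio of Fcgr4 to Fcgr2b was -3.43, -3.88 and -2.75 in OVA arrays, against -3.35, -3.03, -1.94 and -1.79 in saline arrays, and that of Fcgr1 averaged -2.77 ± 0.03 in OVA and -2.61 ± 0.27 in saline. For Fcgr1 the change of the ratio was -0.16 (exact permutation p = 0.343, adjusted p = 0.343) and for Fcgr4 it was -0.83 (exact permutation p = 0.229, adjusted p = 0.343). No pair passed the test. The smallest p before adjustment is 0.0286, and after adjustment over 3 pairs no pair could pass on its own, so whether the receptors changed unequally was not settled. The change for Fcgr4 was -1.49 without saline 1 and 2 and -0.16 without saline 3 and 4. That for Fcgr3 was -0.17 without OVA 2. That for Fcgr1 was -0.27 without saline 1, -0.10 without saline 2, -0.07 without saline 3 and -0.08 without saline 3 and 4. These ratios compare changes between arrays and not amounts of the 2 transcripts, which probe sets do not measure on 1 scale.

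**Figure D3:**
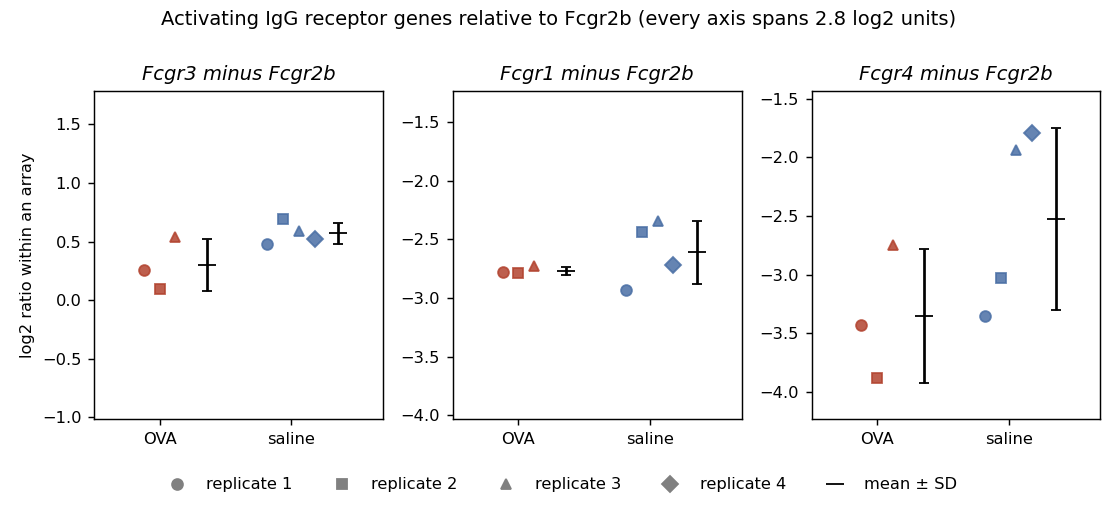
Log2 ratio of each activating IgG receptor gene to Fcgr2b within an array (y axis) in OVA and saline arrays, with mean ± SD. OVA arrays averaged 0.30 for Fcgr3 against 0.57 in saline arrays, and the groups overlap in all 3 panels.

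Fcer1g, the signalling chain that the activating receptors need at the cell surface, was far above background, at 10.73, 10.92 and 10.90 in OVA arrays, against 10.83, 10.30, 10.88 and 11.13 in saline arrays. All OVA arrays lay inside the saline range. The difference was 0.065 (SE 0.18, 95% interval -0.34 to 0.47, limma adjusted p = 0.833), against 0.80 for Fcgr2b and 0.53 for Fcgr3. The difference of Fcer1g was -0.155 without saline 1 and 2, -0.097 without saline 2 and 0.285 without saline 3 and 4, and it was not called in any of them.

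Fcer1a, the IgE-binding chain of the high-affinity IgE receptor of mast cells and basophils, was at 4.65, 4.65 and 4.80 in OVA arrays, against 4.45, 4.78, 4.79 and 4.70 in saline arrays. Every array lay under the median of the negative controls, and 25.5% of them lay below its mean in OVA and 27.9% in saline, so no signal above background was seen in either group. The difference was 0.02 (SE 0.12, limma adjusted p = 0.923). Ms4a2, the beta chain of that receptor, was at 5.29, 5.32 and 5.44 in OVA arrays, against 5.37, 5.19, 5.45 and 5.34 in saline arrays, likewise under the negative control median. The 11 mast cell and basophil markers, which include both genes, had a mean level of 5.70 to 5.77 in OVA and 5.67 to 5.94 in saline, and 7 of them lay under the negative control median in both groups.

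C3, the central complement component, had the largest difference among the 9 members. Its level was 8.86, 8.03 and 8.31 in OVA arrays, against 7.08, 7.06, 7.25 and 6.99 in saline arrays. The groups did not overlap, and OVA 1 was the highest array. The mean was 8.40 ± 0.42 in OVA and 7.09 ± 0.11 in saline, a difference of 1.305 (SE 0.18, limma adjusted p = 0.00306). It kept its call under every alternative run, with differences from 1.05 to 1.49. Of the negative controls, 88.4% lay below the C3 mean in OVA and 72.5% in saline, so the saline level was only moderately above background.

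Among OVA arrays C3 was highest in OVA 1 and lowest in OVA 2, and some markers of alveolar macrophages ran in that order. Chil3, a secreted chitinase-like protein, was at 12.90, 11.98 and 12.52 in OVA arrays, against 5.76, 6.16, 6.64 and 6.49 in saline arrays. Atp6v0d2, a proton pump subunit, was at 7.90, 6.63 and 7.25 in OVA arrays, against 4.83, 4.68, 5.85 and 4.58 in saline arrays. The order held for 6 of the 14 alveolar macrophage markers and for 12.9% of all genes, and the other 8 markers did not have it. Among the 6 were Krt79 and Abcg1, which were not called. Saline 3 was the highest saline array for C3, at 7.25 against 7.08 in saline 1. It was also the highest for the called markers Chil3, Atp6v0d2, Car4 and Mrc1 and for the epithelial genes Sftpc and Scgb1a1. Itgax and Pparg were highest in saline 1, and Ear1 in saline 2. The place of saline 3 was looked at after the values were seen, and its share over all genes was not counted. Car4, a carbonic anhydrase, Itgax, Mrc1 and Pparg were also called higher among the alveolar macrophage markers, by 5.36, 2.07, 2.065 and 1.54. Ear1, of the eosinophil-associated ribonucleases, was called lower. Marco, Fabp1, Krt79, Cd68 and Siglec1 had negative differences (-0.19, -0.71, -0.11, -0.34 and -0.24) and were not called. Abcg1 and Mertk had positive ones (0.125 and 0.07) and were not called either. Car4 broke the order, at 11.91, 11.85 and 11.55 in OVA arrays, as did Pparg, at 7.81, 7.94 and 7.56, and Ear1 ran in the reverse order, at 11.24, 11.84 and 11.37. The part of macrophage RNA in the C3 values was not tested.

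**Figure D4:**
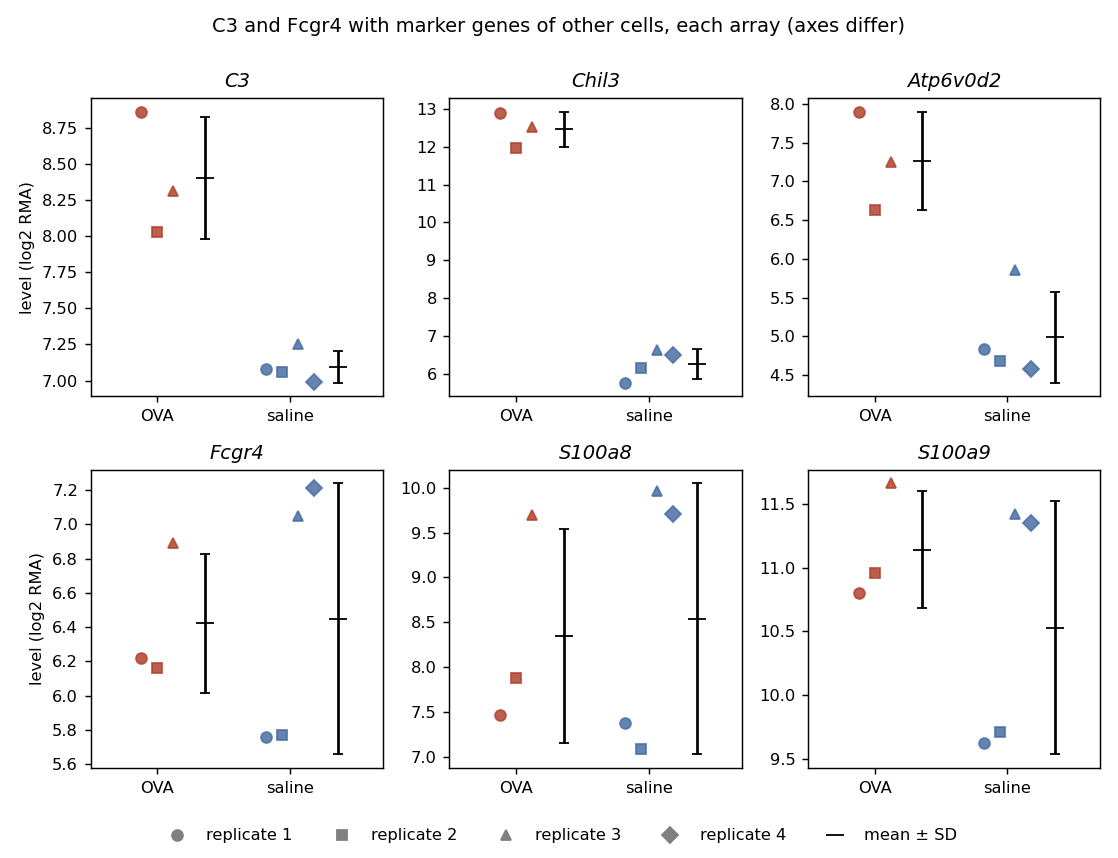
Level (log2 RMA, y axis, a different range in each panel) in every array for C3 with 2 alveolar macrophage markers, Chil3 and Atp6v0d2, in the upper row, and for Fcgr4 with S100a8 and S100a9 in the lower row, markers chosen because they share its order; bars are mean ± SD. OVA 1 is the highest and OVA 2 the lowest OVA array in all upper panels, and OVA 3, saline 3 and saline 4 are the highest arrays in all lower panels.

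C3ar1, the receptor for the C3 fragment, was at 11.79, 11.89 and 11.81 in OVA arrays, against 11.57, 11.39, 11.70 and 11.87 in saline arrays. Its OVA arrays lay close together, above saline 1, 2 and 3 but not clear of saline 4. The difference was 0.20 (SE 0.13, 95% interval -0.09 to 0.48, limma adjusted p = 0.38). It was 0.045 without saline 1 and 2 and 0.35 without saline 3 and 4, not called in either case.

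C5ar1, the receptor for the C5 fragment, had levels of 10.45, 10.47 and 10.30 in OVA arrays, against 9.69, 8.73, 10.48 and 10.57 in saline arrays. Saline 2 and saline 1 were low, while saline 3 and 4 lay just above all OVA arrays. The difference was 0.54 (SE 0.38, 95% interval -0.32 to 1.39, limma adjusted p = 0.418). Without saline 1 and 2 it was -0.12 (SE 0.11, adjusted p = 0.652), and without saline 3 and 4 it was 1.20 (SE 0.24, adjusted p = 0.0116), which passed the test. The direction for C5ar1 thus depended on which saline arrays were used.

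On chromosome 1 of the reference assembly Fcgr2b, Fcgr4 and Fcgr3 are consecutive protein-coding genes, and Fcer1g follows after 7 others. Fcgr2b and Fcgr3, on either side of Fcgr4, were called, and Fcgr4 was not. Of the 7 genes between Fcgr3 and Fcer1g, 6 were measured and 0 were called by limma, with 1 at an unadjusted p under 0.05. Mouse Fcgr2b and Fcgr3 have closely similar extracellular parts, so probes may be shared between them in part and their separate values are less certain than those of the other members.

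Related genes were taken from 6 lists. For comparison, 5.28% of all genes were called higher and 1.17% lower with all 7 arrays. Over all genes 962 were higher and 213 lower with all arrays. Without saline 1 and 2 these were 819 and 406, and without saline 3 and 4 they were 2193 and 990. Other immunoglobulin receptors had 0 of 11 measured members higher and 1 lower (median difference -0.145). The member that fell was Fcrl1, an Fc receptor-like protein of B cells, with a difference of -0.80 (SE 0.14, limma adjusted p = 0.00862) between means of 5.74 in OVA and 6.54 in saline, close to background. Without saline 1 and 2 the list had 0 higher and 2 lower, with Lgals3 added. Fcrl1 was not called without OVA 2 (adjusted p = 0.0538) or OVA 3 (0.0549).

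Of 23 genes of ITAM signalling, 2 were called higher and 1 lower (median difference 0.10). Vav3 and Vav1, guanine nucleotide exchange factors, rose by 0.80 and 0.78 (SE 0.14 and 0.12, limma adjusted p = 0.01 and 0.00486). The Src family kinase Fyn fell by 0.97 (SE 0.22, limma adjusted p = 0.032), at 7.09, 7.07 and 7.30 in OVA arrays, against 8.64, 8.38, 7.71 and 7.77 in saline arrays. Syk, the kinase that binds the ITAM, was at 10.52 to 10.77 in OVA and 10.42 to 10.76 in saline and was not called. Without saline 1 and 2 the counts were 2 higher and 3 lower, and without saline 3 and 4 they were 6 higher and 1 lower. The Fyn difference was -0.59 without saline 1 and 2 and -1.36 without saline 3 and 4, called in both cases. Vav3 was not called without OVA 2 (adjusted p = 0.0569) or OVA 3 (0.0647), and Fyn was not called without OVA 1 (0.109), OVA 2 (0.132), OVA 3 (0.101), saline 1 (0.0533) or saline 2 (0.0625).

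Inhibitory signalling had 1 of 12 members higher and 1 lower (median difference -0.07). The ubiquitin ligase Cbl rose by 0.53 (SE 0.12, limma adjusted p = 0.0315) and the adaptor Sla fell by 0.55 (SE 0.14, limma adjusted p = 0.0444). Inpp5d, the phosphatase recruited by Fcgr2b, was at 10.19 to 10.42 in OVA arrays, against 9.64 to 10.17 in saline arrays. All OVA arrays of Inpp5d lay above saline by a small margin, and the difference of 0.38 (SE 0.14) was not called (limma adjusted p = 0.151). The counts were 0 higher and 4 lower without saline 1 and 2, and 1 higher and 0 lower without saline 3 and 4. Cbl was not called without OVA 1 (adjusted p = 0.0961), OVA 2 (0.125), OVA 3 (0.13), saline 1 (0.0679) or saline 1 and 2 together (0.0703), or with a trended, robust variance prior (0.0631). Among arrays left out singly, Sla was called without saline 2 only (adjusted p from 0.0694 to 0.182 without each of the others), and it was not called without saline 3 and 4 (0.0812) or after median centring (0.0943).

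**Figure D5:**
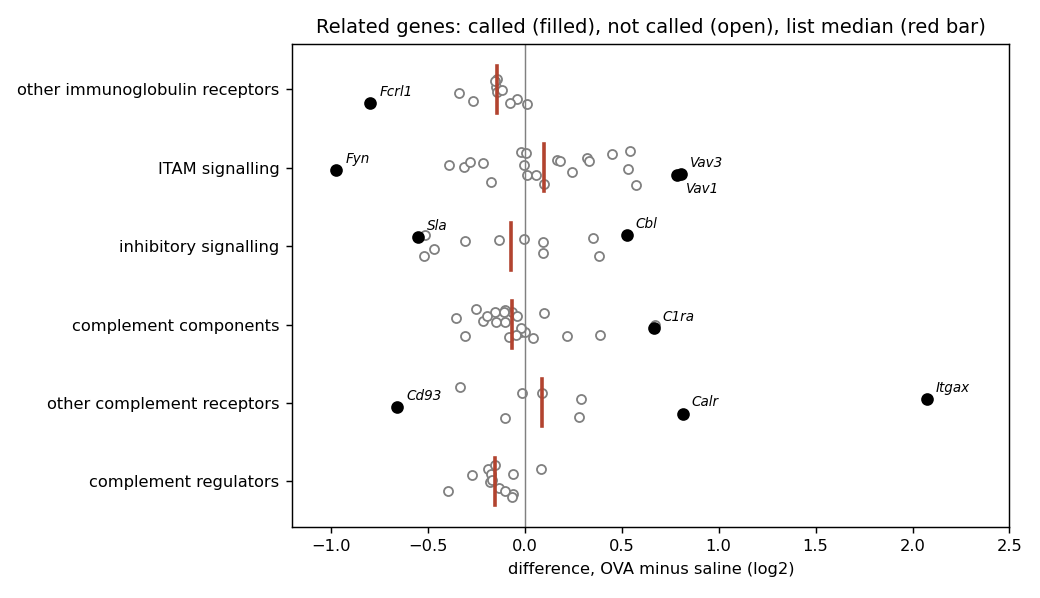
Difference between OVA and saline arrays (log2, x axis) for every measured gene of the 6 related lists, with called genes filled and named and the list median as a red bar. Called genes lie on both sides of 0, and all list medians lie between -0.155 and 0.10.

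Complement genes other than the members were taken as components, receptors and regulators. Among 23 measured complement components other than C3, 1 was higher and 0 lower (median difference -0.065), with 3 higher and 1 lower at an unadjusted p under 0.05. C1ra, a protease of the C1 complex, rose by 0.66 (SE 0.15, limma adjusted p = 0.0295), at 7.16, 6.98 and 7.12 in OVA arrays, against 6.39, 6.40, 6.77 and 6.13 in saline arrays. C1ra was not called without OVA 1 (adjusted p = 0.106), OVA 2 (0.086), OVA 3 (0.131), saline 1 (0.0726) or saline 2 (0.0515). Cfb, a protease of the alternative pathway, was at 7.54 to 7.75 in OVA and 7.05 to 7.43 in saline, without overlap and not called (limma adjusted p = 0.0993). Of the negative controls, 70.0% lay below the C1ra mean in OVA and 60.3% in saline, so its level was close to background. Without saline 1 and 2 the counts were 2 higher and 0 lower, with C1s1, a partner protease of C1ra, and Cfb called and C1ra not (0.64, adjusted p = 0.0918). C1s1, with means of 5.12 in OVA and 4.445 in saline, was among 5 of the 23 components under the negative control median in both groups. Without saline 3 and 4 the counts were 1 higher, C1ra, and 1 lower, Cfd, factor D.

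Other complement receptors had 2 of 9 members higher and 1 lower (median difference 0.09). Itgax, the integrin chain of complement receptor CR4, rose by 2.07 (SE 0.16, limma adjusted p = 0.000148); it also stands in the alveolar macrophage list. Calr, a chaperone that can bind C1q at the cell surface, rose by 0.82 (SE 0.15, limma adjusted p = 0.013), and Cd93, a receptor once linked to C1q, fell by 0.66 (SE 0.12, limma adjusted p = 0.0105). Without saline 1 and 2 the counts were 2 higher and 2 lower, with the integrin chain Itgb2 added. Calr was not called without OVA 2 (adjusted p = 0.0665) or OVA 3 (0.0702), and Cd93 was not called without OVA 2 (0.0641) or OVA 3 (0.0509).

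Complement regulators, which protect host cells, had 0 of 13 members called in either direction by limma (median difference -0.155), with 0 higher and 1 lower at an unadjusted p under 0.05. Of these, 10 lay under the negative control median in both groups. The member with the highest level on the arrays was Cd55, decay-accelerating factor, at 8.99, 9.56 and 9.27 in OVA arrays, against 9.41, 9.28, 10.01 and 9.98 in saline arrays. Its difference of -0.40 (SE 0.21) was not called, and without saline 1 and 2 it was -0.72 and passed the test (limma adjusted p = 0.0428). Without saline 3 and 4 it was -0.07 (limma adjusted p = 0.768), and the list's single call was then Cd59b, lower.

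The genes whose levels over the 7 arrays ran closest to those of C3 and Fcgr2b were found by the root mean square difference of levels centred on each gene's mean. For C3 they were Anpep (0.13 log2 units), a membrane aminopeptidase, Clca1 (0.15) and Lpl (0.18), lipoprotein lipase. For Fcgr2b they were Tapt1 (0.07), Smad7 (0.08), an inhibitor of TGF-beta signalling, and Egr1 (0.09), an immediate early transcription factor. Since likeness to a called gene selects for its group difference, that difference is given as a description: it was 1.33 for Anpep, 1.49 for Clca1, 1.48 for Lpl, 0.84 for Tapt1, 0.81 for Smad7 and 0.74 for Egr1.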

How the data were processed

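Each array value was deposited by the authors on a log2 scale after RMA (robust multi-array average), a step named in the submitters' processing notes without a version. RMA is meant to bring arrays to a common distribution, so a shift shared by most genes would be largely removed. The deposited arrays still differed, with medians from 6.47 to 6.59 and an SD across genes from 1.67 to 1.90. Per the labels' protocols, total RNA from an RNeasy kit was amplified and biotin-labelled with NuGEN Ovation reagents. Per the file headers, the arrays were mouse gene 1.0 ST arrays. Gene symbols of 35557 probe sets came from the deposited annotated table, updated through RefSeq (GRCm38.p6): 16859 by accession, 1293 by symbol and 670 by synonym, with 977 kept and 15758 without one. That table's own 7 columns of levels cannot be tied to samples by name and were not used (each repeats an array's values to within 0.005, and only 2 stand in the matching position). For 840 genes with several probe sets the one with the highest mean was taken, and dim genes were kept.

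Groups were compared with limma 3.58.1 (R 4.3.3; lmFit and eBayes, group as the only term, adjusted p under 0.05), tested on simulated data. The members and lists were chosen with earlier results of these data known. Named genes are all members, up to 4 called genes of each list or else its highest-level gene, and the 3 genes closest in level to each of the 2 called members with the largest difference. Syk, Inpp5d, Cfb, C1s1, Ms4a2, S100a8, S100a9, Cd14, Treml4, Ear1, Pparg, Camp, Lgals3, Itgb2, Cfd and Cd59b were named after their values were seen. So were Mrc1, Ccr3, Il5ra, Alox15, Csf2rb, Cd3d, Cdh1, Scgb1a1 and the alveolar macrophage markers that were not called. The same holds for Cd79a, Batf3, Krt18, Pecam1, Cx3cr1 and Kit. Alternatives changed the normalization, the probe set rule, the dim filter, the variance model and the arrays included. Arrays of a group differed by an SD of 0.215 to 0.448 over genes, so none looked like a repeat. The number of arrays limits the precision.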

Additional observations from a re-analysis of the deposited data

How the results depend on the processing

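Under 17 alternatives the members called higher numbered 4 or were within 1.5 times of it, except without OVA 2 or OVA 3 (2 each; range 2 to 4 with 1 array left out), and 0 were called lower in every one. Over all genes, 962 were called higher and 213 lower; with 1 array left out these were 367 to 1218 and 68 to 267. Array weights gave 1653 higher and 679 lower, and leaving out saline 3 and 4 gave 2193 and 990. Repeating quantile normalization gave 956 and 431, cyclic loess 1138 and 413, median centring 767 and 120, and leaving out saline 1 and 2 gave 819 and 406. C3 and Fcgr2b were called under all alternatives. The OVA minus saline change of the Fcgr1 ratio to Fcgr2b was -0.16 in the main run. It was -0.035 after repeated quantile normalization and turned positive after cyclic loess (0.016). The Fcgr4 difference turned positive after quantile normalization (0.021), median centring (0.0025) and cyclic loess (0.054), with the replicate block (0.23), and without saline 3 and 4 (0.66), and ran from -0.26 to 0.23 with 1 array left out. That of Fcer1g was -0.0021 after cyclic loess, -0.155 without saline 1 and 2, and -0.097 to 0.18 with 1 array left out. That of Fcer1a was -0.035 with array weights, -0.045 without saline 1 and 2, and -0.057 to 0.057 with 1 array left out; with dim genes left out it gave no value. C5ar1 was -0.12 without saline 1 and 2. For these reversals the cause was not tested. With arrays left out, the exact test of a ratio could not pass its threshold.

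Whether the replicate numbers pair the arrays was not settled. Deviations of same-numbered arrays from their group means correlated at 0.27, -0.14 and 0.24. Those of differently numbered arrays ran from -0.48 (OVA 1 with saline 4) to 0.45 (OVA 1 with saline 2). With the replicate block over replicates 1 to 3, 4 members were called higher and 0 lower, with differences of 0.81 for Fcgr2b and 1.27 for C3; of the other called genes of the related lists, Sla was not called (adjusted p = 0.0709). No sample stood far from its group in any of 35 values looked at among the 4 saline arrays.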
